A study of Mus musculus with 6 samples.

Results

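Ly6g, Lypd8, Ly6a, Ly6e, Ly6d, Ly6c1 and Lypd3 are 7 mouse genes of the Ly6/uPAR family, and all 7 are listed among the 14254 genes of the table. They were picked by name because Ly6g and Lypd8 stood far higher after Jag1 knockdown, so the values of Ly6g and Lypd8 are given as a description with no test. RNA was sequenced from organoids of the mouse pancreatic ductal adenocarcinoma line KPF_5.3G, which are clusters of tumour cells in a defined medium with growth factors such as EGF and R-spondin-1. The shJag1_3 group (3 libraries) carried a lentiviral short hairpin RNA against Jag1, a ligand of the Notch receptors, and the shCtrl group (3 libraries) carried a control hairpin. Both groups share the line, the medium and a genotype given as WT, and the knockdown rests on a single hairpin in a single line. The tumour alleles of the line are not given in the sources used here. The comparison asks how Jag1 shapes gene expression in organoids that hold CD9-high tumour-initiating cells.

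Ly6/uPAR proteins share a small domain held together by disulfide bonds, and most of them sit on the cell surface through a glycosylphosphatidylinositol (GPI) lipid anchor. The mouse Ly6 genes lie in a cluster on chromosome 15 and are best known as markers of blood, endothelial and stem cells. Ly6g marks neutrophils, Ly6c1 marks endothelium, and Ly6a, also called Sca-1, marks haematopoietic stem cells. Ly6a and Ly6e are also induced by interferon, Ly6d and Lypd3 are found in stratified epithelium, and Lypd8 is a protein of the colon surface that binds flagellated bacteria.

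RefSeq promoters of GRCm38.p6, 250 bases before to 50 bases after the annotated start, were at hand for 4 of the 7 genes. They are shown because Ly6g and Ly6c1 are neighbours of like sequence with very different levels, and because Lypd8 and Lypd3 lie on other chromosomes. Capitals mark the motifs found.

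Ly6g (chr15:75155011-75155310, plus strand): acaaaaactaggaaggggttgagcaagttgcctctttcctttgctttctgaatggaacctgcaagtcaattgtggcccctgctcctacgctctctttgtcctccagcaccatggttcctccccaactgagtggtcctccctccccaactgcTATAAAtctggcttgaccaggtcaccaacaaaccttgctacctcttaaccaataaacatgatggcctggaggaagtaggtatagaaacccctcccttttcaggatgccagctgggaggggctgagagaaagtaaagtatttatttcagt
Ly6c1 (chr15:75048788-75049087, minus strand): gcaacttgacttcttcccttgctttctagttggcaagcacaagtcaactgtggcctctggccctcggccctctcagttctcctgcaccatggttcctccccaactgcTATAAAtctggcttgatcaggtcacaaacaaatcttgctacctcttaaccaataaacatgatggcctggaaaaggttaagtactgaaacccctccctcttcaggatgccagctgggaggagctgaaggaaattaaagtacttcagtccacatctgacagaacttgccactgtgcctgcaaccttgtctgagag
Lypd8 (chr11:58378782-58379081, plus strand): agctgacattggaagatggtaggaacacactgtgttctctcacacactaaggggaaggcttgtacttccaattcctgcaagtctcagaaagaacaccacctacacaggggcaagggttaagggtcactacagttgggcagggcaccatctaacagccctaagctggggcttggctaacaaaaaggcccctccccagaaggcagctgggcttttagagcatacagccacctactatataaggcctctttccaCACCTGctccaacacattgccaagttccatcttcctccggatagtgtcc
Lypd3 (chr7:24636320-24636619, plus strand): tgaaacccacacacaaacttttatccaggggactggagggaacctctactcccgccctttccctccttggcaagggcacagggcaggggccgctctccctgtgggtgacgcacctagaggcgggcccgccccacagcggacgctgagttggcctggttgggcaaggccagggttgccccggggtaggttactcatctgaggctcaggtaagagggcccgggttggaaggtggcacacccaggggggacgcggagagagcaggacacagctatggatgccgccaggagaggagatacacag

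The Ly6g and Ly6c1 windows aligned over 248 bases with 84.3% identity, by local alignment. The Lypd8 window aligned with that of Ly6g over 23 bases, and the Lypd3 window over 11. Both chr15 windows held the letters TATAAA, a form of the core of a TATA box. They lay at positions -99 to -94 in Ly6g and -143 to -138 in Ly6c1, counted from the annotated start. Whether they act as a TATA box there was not tested. TATAAA was found on either strand in 13.6% of the 32851 promoters of the same length. Lypd8 held the letters CACCTG, the only form of the E-box searched, at positions 1 to 6. These letters were found on either strand in 20.2% of all promoters. The letters TGGGAA, part of the site of the Notch partner RBPJ, were found in none of the 4 windows and in 25.6% of all promoters. The letters TTCNNNGAA, to which STAT factors bind, and the interferon-stimulated response element were likewise found in none of the 4, and in 8.30% and 3.44% of all promoters. A match or its absence describes the letters of these windows only. Letters close to those searched, such as CAGCTG in Ly6g, Ly6c1 and Lypd8 and TATAAG in Lypd8, were neither searched nor marked.

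The libraries held 22268997 to 35172593 reads. Jag1 had 226, 321 and 557 normalised counts in shJag1_3 libraries 1, 2 and 3, against 412, 983 and 847 in shCtrl libraries 1, 2 and 3. Within each pair of libraries with the same number the knockdown was lower, but shJag1_3 library 3 lay above shCtrl library 1. Its log2 change was -1.03 (SE 0.45, adjusted p = 0.691 in limma), and -1.02 (SE 0.27, adjusted p = 0.00628) in DESeq2 with the replicate number as a term, which was lost without pair 2 (adjusted p = 0.785) or pair 3 (adjusted p = 0.0858). The exact two-sided permutation p over libraries was 0.2, and the smallest that 3 libraries a group allow is 0.1. Both libraries numbered 1 stood apart from the other 4, and the share of mitochondrial reads was 0.555%, 1.02% and 1.20% in shJag1_3 libraries 1 to 3, against 0.595%, 1.55% and 2.03% in shCtrl libraries 1 to 3. Whether this share bears on the genes below was not tested. Values below are normalised counts, which are reads divided by a size factor per library, and log2 changes are shJag1_3 minus shCtrl. The ductal markers Krt8, Krt18 and Krt7 were each at 33826 normalised counts or more in every library.

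Ly6g, on the plus strand of chromosome 15 (75155240 to 75159126 in GRCm38), had 86.8, 4528 and 2992 normalised counts in shJag1_3 libraries 1, 2 and 3, against 93.6, 14.9 and 12.5 in shCtrl libraries 1, 2 and 3. Libraries 2 and 3 of the knockdown thus stood 303-fold and 240-fold above the control of the same number, while in pair 1 the ratio was 0.927. The groups overlapped, because shJag1_3 library 1 lay below shCtrl library 1, and both libraries numbered 1 lay between the other knockdowns and the other controls. Behind these values were 99, 3685 and 3916 reads in the knockdown, against 113, 13 and 10 reads in the control. The group means were 2536 ± 2256 in shJag1_3 and 40.3 ± 46.2 in shCtrl (SD, n = 3 each), so the SD of the knockdown was nearly as large as its mean.

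Lypd8, on the plus strand of chromosome 11 (58379043 to 58390728), had 19.3, 2555 and 592 normalised counts in shJag1_3 libraries 1 to 3, against 5.80, 3.45 and 12.5 in shCtrl libraries 1 to 3. Every knockdown library lay above every control, library 2 by the most and library 1 by the least. The log2 differences within pairs 1, 2 and 3 were 1.58, 9.17 and 5.46. The controls rest on 7, 3 and 10 reads, so the size of these differences is uncertain, whereas the knockdown had 22, 2079 and 775 reads. Ly6g and Lypd8 differ in pair 1, where Ly6g was at -0.11 on the log2 scale and Lypd8 at 1.58. For both genes knockdown library 2 was the highest and library 3 next.

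**Figure D1:**
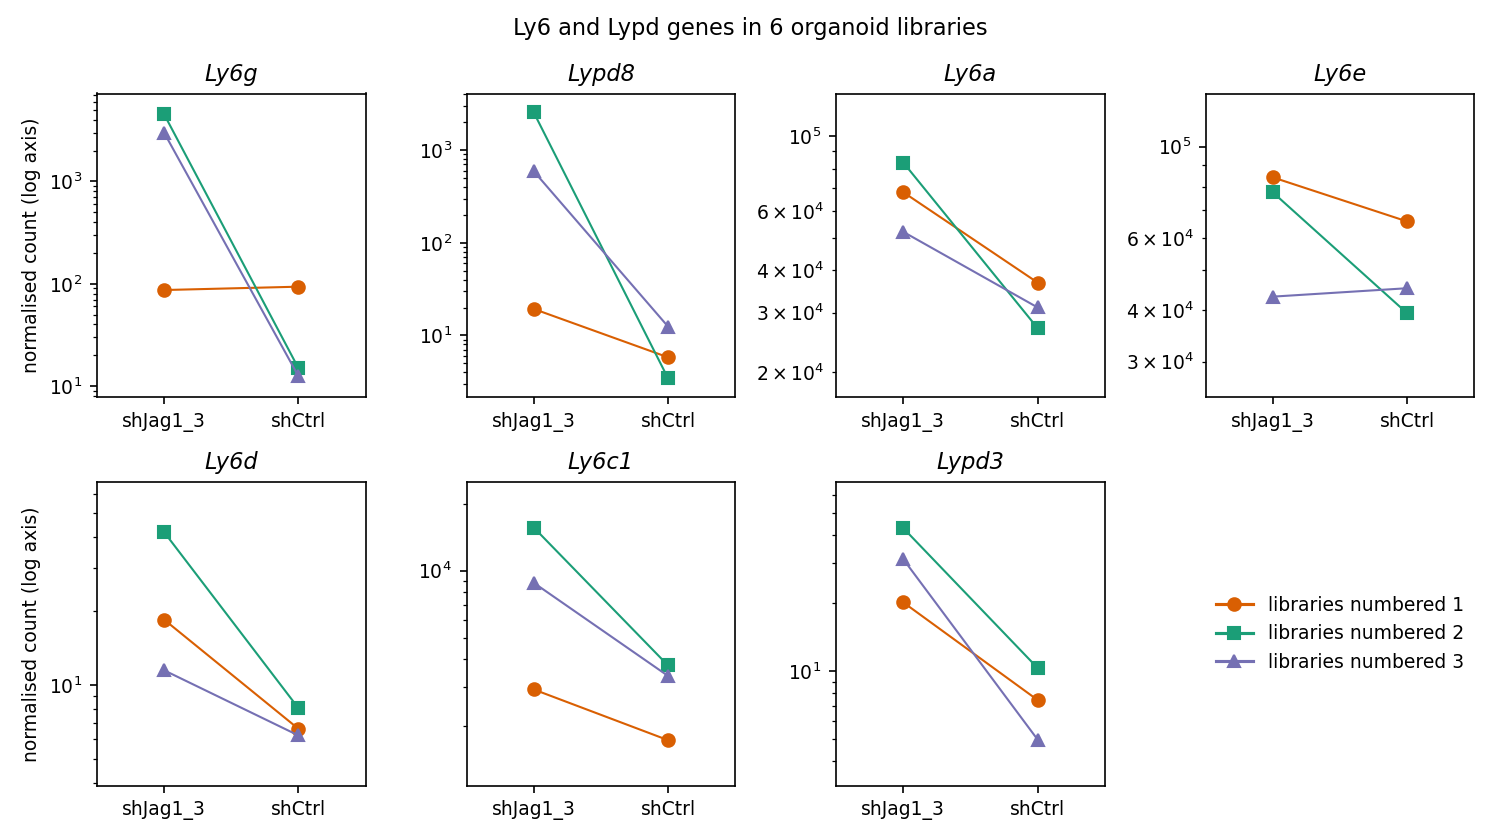
Normalised counts (log axis, a separate scale in each panel) of the 7 Ly6 and Lypd genes in 3 shJag1_3 and 3 shCtrl libraries, with points of the same replicate number joined. Ly6g and Lypd8 stand far above the controls in shJag1_3 libraries 2 and 3, with 4528 and 2992 counts for Ly6g, while library 1 stays at 86.8.

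Ly6a, on the minus strand of chromosome 15 (74994877 to 74998031), was the most abundant of the 7 per length of transcript. It had 68125, 83372 and 52020 normalised counts in shJag1_3 libraries 1 to 3, against 36835, 27013 and 31097 in shCtrl libraries 1 to 3. All 3 knockdown libraries lay above all 3 controls, with means of 67839 ± 15678 in shJag1_3 and 31648 ± 4934 in shCtrl (SD, n = 3 each), a 2.14-fold difference. The log2 change was 1.09 (SE 0.25) and did not pass in limma (adjusted p = 0.604, and 0.149 with the replicate term). In DESeq2 it passed, with an adjusted p of 0.0107 without the replicate term and 1.82e-04 with it, fits that called 0.722% and 4.57% of all genes tested higher. It lost that call without pair 2 (adjusted p = 0.196 in DESeq2 with the term).

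Ly6c1, on the minus strand of chromosome 15 (75044018 to 75048830), had 2931, 15609 and 8819 normalised counts in shJag1_3 libraries 1 to 3, against 1737, 3755 and 3371 in shCtrl libraries 1 to 3. Each knockdown library lay above the control of its own number, but library 1 of the knockdown lay below controls 2 and 3, so the groups overlapped. The log2 change was 1.40 (SE 0.62, adjusted p = 0.698 in limma, and 0.147 with the replicate term). In DESeq2 it passed with the replicate term (1.40, SE 0.27, adjusted p = 2.83e-05), not without it (adjusted p = 0.196) and not without pair 2 (adjusted p = 0.0549). Of the 50-base windows of its exons 32.8% also occur in another gene, 21.5% in Ly6c2, which is not listed in the table, and for Ly6a 19.0% do, mostly in Ly6c1. The read length and the treatment of such reads are not given in the sources used here, so the counts of Ly6a and Ly6c1 may hold reads of each other.

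Ly6e, on the plus strand of chromosome 15 (74955051 to 74959905), had 84196, 77413 and 43162 normalised counts in shJag1_3 libraries 1 to 3, against 65774, 39318 and 45246 in shCtrl libraries 1 to 3. The groups overlapped, and in pair 3 the knockdown lay slightly below the control. The log2 change of 0.42 (SE 0.34, adjusted p = 0.840 in limma) passed in none of the fits, with an adjusted p of 0.332 in DESeq2 with the replicate term.

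Ly6d, on the minus strand of chromosome 15 (74762056 to 74763620), was low throughout, with 18.4, 41.8 and 11.5 normalised counts in shJag1_3 libraries 1 to 3, against 6.63, 8.04 and 6.23 in shCtrl libraries 1 to 3. The groups did not overlap, and library 2 of the knockdown was the highest. The log2 change of 1.46 (SE 0.55, adjusted p = 0.667 in limma) rests on 21, 34 and 15 reads, against 8, 7 and 5 reads, and did not pass in DESeq2 with the replicate term (adjusted p = 0.307).

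Lypd3, on the plus strand of chromosome 7 (24636550 to 24641118), had 20.2, 43.0 and 31.3 normalised counts in shJag1_3 libraries 1 to 3, against 7.46, 10.3 and 4.98 in shCtrl libraries 1 to 3. Every knockdown library lay above every control. The log2 change was 1.90 (SE 0.47, adjusted p = 0.604 in limma), with an adjusted p of 0.092 in DESeq2 with the replicate term. Lypd3 overlaps the antisense gene Gm26550, and the library kit does not mark the strand, so reads of the shared stretch, 8.13% of the 50-base windows of its exons, cannot be told apart. Ly6d, Lypd3 and Lypd8 passed the filter of 10 normalised counts in 3 libraries only because the knockdown libraries did, which ties passing to being higher.

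Of the 5 genes that did not choose the set, 0 passed limma, which called 0.0% of the 13997 genes tested, while 1021 genes had a p below 0.05 before adjustment. Limma with the replicate term called 0.0143% of all genes and again 0 of the 5. DESeq2 with the replicate term called 2 of the 5 higher, Ly6a and Ly6c1, beside 4.57% of all genes tested, and 0 of the 5 lower, beside 2.58% of all genes. Among Ly6a, Ly6c1 and Ly6e, which passed the filter in both groups, the groups did not overlap for Ly6a, as for 6.29% of all genes, which were higher in shJag1_3. The exact permutation p was 0.1 for Ly6a, the lowest possible, and 0.3 for Ly6e and Ly6c1. On replicates 2 and 3 only, without the libraries that stand apart, limma called Ly6a (log2 change 1.18, adjusted p = 0.0444) and Ly6c1 (1.72, adjusted p = 0.0216) higher, beside 6.04% of all genes. Lypd3 was also called there (2.20, adjusted p = 0.0486), but it passed the filter only through the knockdown libraries, which leaves that call without weight of its own. Ly6e and Ly6d did not pass there (adjusted p = 0.373 and 0.211).

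Normalised counts per kilobase of exon ran in the order Ly6a, Ly6e, Ly6c1 and Ly6g in every library, and below them Lypd8, Ly6d and Lypd3 exchanged places between libraries. Ly6a averaged 56298 ± 13011 normalised counts per kilobase in shJag1_3 and 26264 ± 4095 in shCtrl (SD, n = 3 each), and Ly6e averaged 18038 ± 5813 in shJag1_3 and 13243 ± 3669 in shCtrl. At the low end Lypd3 averaged 19.1 ± 6.92 in shJag1_3 and 4.60 ± 1.63 in shCtrl. Over all libraries Ly6a and Ly6e stood at percentile 99.0 to 99.7 of the listed genes per kilobase. Ly6g stood at percentile 42.8, 97.6 and 97.0 in shJag1_3 libraries 1 to 3, against 43.6, 16.6 and 15.1 in shCtrl libraries 1 to 3. Within each group the levels of Ly6a, Ly6e and Ly6c1 did not overlap, whereas those of Ly6c1 and Ly6g overlapped in shJag1_3, as did those of Ly6d and Lypd3. Per kilobase Ly6g reached 5.27%, 51.6% and 60.4% of the level of Ly6c1 in shJag1_3 libraries 1 to 3, against 9.60%, 0.708% and 0.658% in shCtrl libraries 1 to 3. The 7 genes together took 0.599%, 0.650% and 0.402% of the gene reads in shJag1_3 libraries 1 to 3, against 0.415%, 0.254% and 0.290% in shCtrl libraries 1 to 3, most of it Ly6a and Ly6e. In these bulk libraries, more cells that express a gene and more RNA per cell cannot be told apart.

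The table also lists 11 of 37 other genes of the Ly6/uPAR family. In DESeq2 with the replicate term 4 of the 11 were called higher, Plaur, Spaca4, Ly6m and Ly6g6c, 0 lower, and 7 did not pass, beside 4.57% of all genes higher and 2.58% lower in that fit. Spaca4, Ly6m and Ly6g6c had at least 10 normalised counts in 3 knockdown libraries and in 1 control library, so they passed the filter only through the knockdown, and Plaur is the called gene that passed it in both groups. The median log2 change in limma of the 11 was 0.93, and 0.51, 1.49 and 0.92 in pairs 1, 2 and 3, beside 0.00 over all genes tested. These medians include Spaca4, Ly6m, Ly6g6c and also Ly6g2, which passed the filter only through the knockdown libraries. Being higher is thus partly built into them. In pair 1 the rest were at 0.96 (Ly6g6d), 0.51 (Plaur), 0.41 (Ly6i), 0.09 (Lynx1), 0.08 (Ly6g5b), -0.0003 (Lypd6b) and -1.74 (Lypd1). Limma called 0 of the 11. Without pair 2 or without pair 3 the DESeq2 calls of all 4 were lost, with adjusted p from 0.181 to 1.00.

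Ly6m, a cluster gene between Ly6d and Ly6e, had 22.8, 750 and 172 normalised counts in shJag1_3 libraries 1 to 3, against 14.9, 5.74 and 0 in shCtrl libraries 1 to 3. As with Ly6g, the libraries numbered 1 lay close together and the other 2 pairs lay far apart. Its log2 change in DESeq2 with the replicate term was 6.29 (SE 1.93, adjusted p = 0.0216), with a control library at 0 reads. Plaur, the urokinase receptor, had 5453, 13868 and 16141 normalised counts in shJag1_3 libraries 1 to 3, against 3821, 7555 and 8503 in shCtrl libraries 1 to 3. It was higher within each pair, at 0.77 (SE 0.18, adjusted p = 9.24e-04 in DESeq2 with the term), although knockdown library 1 lay below controls 2 and 3.

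Spaca4, a sperm membrane protein, had 19.3, 83.6 and 54.3 normalised counts in shJag1_3 libraries 1 to 3, against 4.14, 9.19 and 11.2 in shCtrl libraries 1 to 3, without overlap (adjusted p = 0.00532 in DESeq2 with the term). It lies within the span of Fam83e, which is listed, but 0.0% of the 50-base windows of its exons occur in another gene. Ly6g6c had 92.1, 34.4 and 13.8 normalised counts in shJag1_3 libraries 1 to 3, against 26.5, 0 and 3.74 in shCtrl libraries 1 to 3 (adjusted p = 0.043 in DESeq2 with the term). It was highest in library 1 of each group, and it overlaps Mpig6b, which is not listed.

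Ly6g2, which starts 61.1 kb from Ly6g, had 43.0, 30.7 and 34.4 normalised counts in shJag1_3 libraries 1 to 3, against 16.6, 8.04 and 3.74 in shCtrl libraries 1 to 3, without overlap, and did not pass (2.09, SE 0.78, adjusted p = 0.0784 in DESeq2 with the term). Lynx1, which binds nicotinic receptors, was at 0.50, Ly6i at 0.93, Lypd6b at 0.90 and Ly6g6d at 1.17 on the log2 scale, with adjusted p from 0.237 to 0.50 in DESeq2 with the term. Lypd1 and Ly6g5b, at -0.11 and -0.04, were given no adjusted p by DESeq2.

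**Figure D2:**
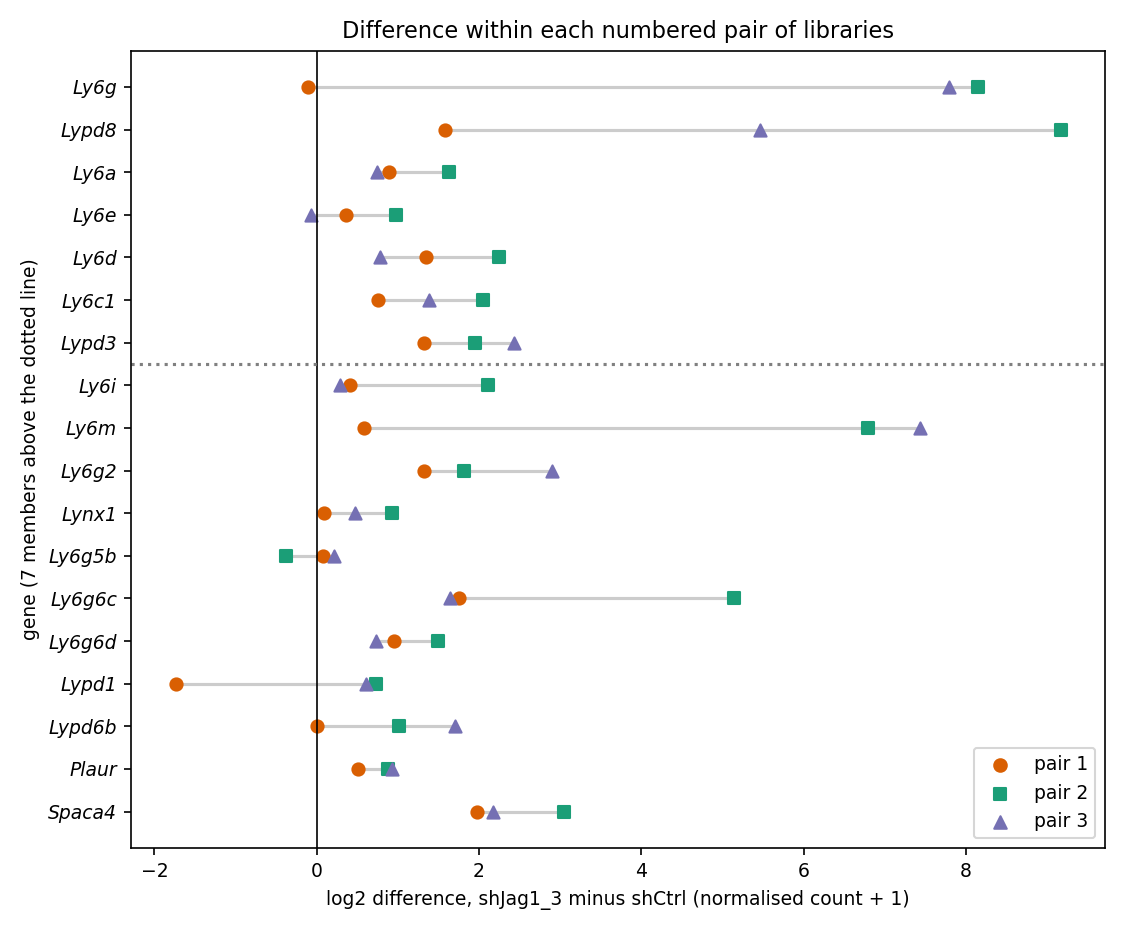
Log2 difference of normalised count plus 1, shJag1_3 minus shCtrl, within replicate pairs 1, 2 and 3 for the 7 genes (above the dotted line) and 11 other listed Ly6/uPAR genes. Ly6g and Ly6m share a pattern with pair 1 near 0 (-0.11 and 0.58) and pairs 2 and 3 above 6.

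Along chromosome 15 the 5 Ly6 genes run from Ly6d, whose start lies at -391.6 kb, to Ly6g at 0. Within 500 kb of a member the table lists 9 other genes, of which DESeq2 with the replicate term called 2 higher, Ly6m and Them6 (1.06, SE 0.29, adjusted p = 0.00794), and 0 lower, beside 4.57% of all genes higher. The median log2 change in limma of these 9 was 0.63, and 6 were higher in all 3 pairs, as were 22.3% of all genes. The 9 include the family genes Lynx1, Ly6i, Ly6m and Ly6g2, already counted above, of which Ly6m and Ly6g2 passed the filter only through the knockdown. Of the neighbours outside the family, Them6 and Arc were higher in all 3 pairs, whereas Jrk, Zfp41 and 2810039B14Rik were not. Lynx1 and Ly6i, at 10.6 kb from Ly6d and 14.6 kb from Ly6a, did not pass. Around Lypd8, 1 of 13 tested neighbours was called higher, 2210407C18Rik (adjusted p = 0.0158). It had 14.9, 129 and 20.6 normalised counts in shJag1_3 libraries 1 to 3, against 3.31, 0 and 3.74 in shCtrl libraries 1 to 3. It thus passed the filter only through the knockdown libraries, which ties its call to being higher. The median around Lypd8 was -0.15, and the nearest, Sh3bp5l, Zfp672 and Zfp692, were at 0.06, -0.14 and 0.00. Around Lypd3, 2 of 22 were called higher, Plaur and Ethe1 (0.62, adjusted p = 0.0182). The median there was -0.01 in limma, with Phldb3 at 0.27 and Zfp575 at 0.41 in the same fit. The counts around Lypd8 and Lypd3 stand beside 4.57% of all genes called higher and are too small to be set against that share. Plaur was also counted among the family genes above. The medians around Lypd8 and Lypd3 lay slightly below that of all genes, 0.00.

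**Figure D3:**
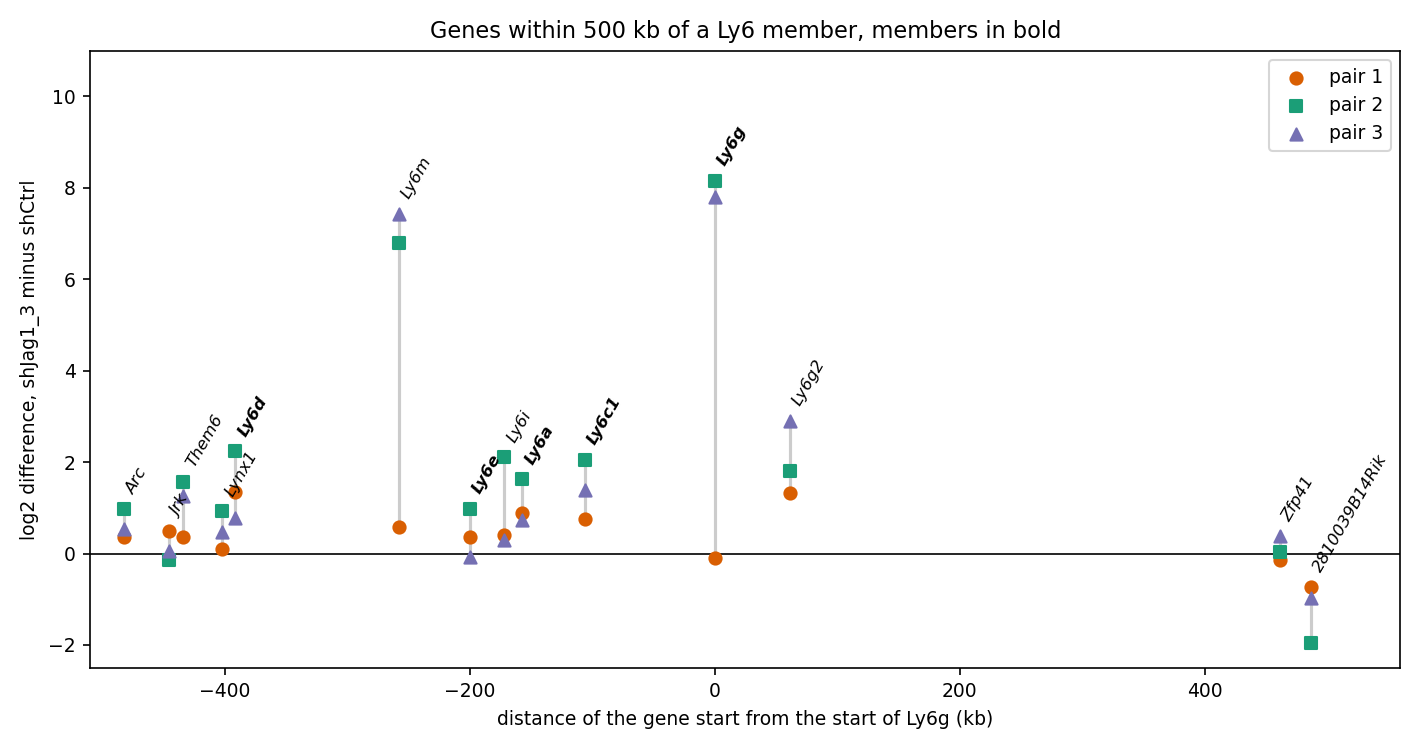
Log2 difference, shJag1_3 minus shCtrl, within pairs 1, 2 and 3 for each listed gene within 500 kb of a Ly6 member on chromosome 15, plotted by its start relative to that of Ly6g in kb, with members in bold. Ly6g and Ly6m stand above 6 in pairs 2 and 3, and the genes between them, Ly6e, Ly6i, Ly6a and Ly6c1, lie between -0.07 and 2.11.

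Among genes with a mean of at least 50 and an SD of at least 0.3 on the log2 scale, the centromere histone chaperone Hjurp (r = 0.997), Galnt3 (0.993), Tmcc3 (0.993) and Noct (0.990) had the patterns most like that of Ly6g over the 6 libraries, by Pearson r of log2 values. Likeness is in shape and not in size: Hjurp had 2970, 4270 and 4161 normalised counts in shJag1_3 libraries 1 to 3, against 2935, 2591 and 2594 in shCtrl libraries 1 to 3. The patterns most like Lypd8 were those of Neu1, Adora2a, Prkcz and Snx25 (r = 0.988 to 0.990), and most like Ly6a those of Hip1r, Zbtb42, Ap5s1 and Smagp (0.986 to 0.998). For Ly6e they were Casc1, Cep85, Lrp10 and Mrps21 (0.983 to 0.999), and for Ly6c1 Plekhg6, Omp, S100a1 and Fbxl8 (0.993 to 0.995). For Ly6d they were Cblc, Nectin2, H2afv and Stap2 (0.987 to 0.995), and for Lypd3 Prss16, Tmem82, Ncmap and Pnpla3 (0.991 to 0.993). Among the 7 genes themselves r ran from 0.019 for Ly6e with Ly6c1 to 0.938 for Ly6g with Lypd8. The points share libraries and groups, 6 points allow a high r in many of the 6372 candidates, and no p is given.

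Most markers of blood cells, in which Ly6g is best known, are not listed. Of 10 neutrophil markers 1 is listed, Ltf. It had 457, 1210 and 612 normalised counts in shJag1_3 libraries 1 to 3, against 263, 2540 and 2251 in shCtrl libraries 1 to 3. Its log2 differences were 0.80, -1.07 and -1.88 in pairs 1, 2 and 3. The defining neutrophil genes S100a8, S100a9, Mpo, Elane and Csf3r are not listed in the table. Of 10 general leukocyte markers 1 is listed, Cd53, which was lower (-1.25, SE 0.31, adjusted p = 0.00289 in DESeq2 with the replicate term). That fit called 2.58% of all genes lower. Ptprc, the marker of all leukocytes, is not listed. Of 8 endothelial markers Tek and Esam are listed, of which Esam was lower (adjusted p = 0.043 in DESeq2 with the term). Esam had 93.0, 4.92 and 2.29 normalised counts in shJag1_3 libraries 1 to 3, against 144, 44.8 and 18.7 in shCtrl libraries 1 to 3. It passed the filter only through the control libraries, which ties its call to being lower. The sum of Tek and Esam was 147, 11.1 and 24.5 in shJag1_3 libraries 1 to 3, against 206, 52.8 and 24.9 in shCtrl libraries 1 to 3. Of 8 fibroblast markers Pdgfra and Pdgfrb are listed, with sums of 28.9, 45.5 and 30.6 in shJag1_3 libraries 1 to 3, against 44.7, 35.6 and 44.9 in shCtrl libraries 1 to 3.

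The mean log2 level of 30 interferon response genes was 8.95, 9.61 and 8.41 in shJag1_3 libraries 1 to 3, against 9.73, 7.12 and 8.01 in shCtrl libraries 1 to 3. The log2 level of Ly6e was 16.36, 16.24 and 15.40 in shJag1_3 libraries 1 to 3, against 16.01, 15.26 and 15.47 in shCtrl libraries 1 to 3. The same 3 libraries, shJag1_3 1 and 2 and shCtrl 1, were the highest for both, and shCtrl 2 was the lowest for both. Ly6a was higher in every knockdown library than in shCtrl 1, where the interferon genes were at their highest. Whether the interferon response has a part in these levels was not tested. All 30 of the list were tested, and DESeq2 with the replicate term called 0 of them in either direction. That fit called 4.57% of all genes higher and 2.58% lower, and a list of 30 is too short to be set against those shares. The median log2 difference of the 30 genes was -0.76 in pair 1, where Ly6a was at 0.89 and Ly6e at 0.36. In pair 2 it was 2.70, with Ly6a at 1.63 and Ly6e at 0.98, and in pair 3 it was 0.51, with Ly6a at 0.74 and Ly6e at -0.07. The most abundant of them, Bst2, had 4620, 6293 and 3473 normalised counts in shJag1_3 libraries 1 to 3, against 6086, 3630 and 3768 in shCtrl libraries 1 to 3.

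Genes that build and transfer the GPI anchor stayed near the median of all genes as a list. Of 28 tested 0 were called higher and 1, Pign (adjusted p = 4.44e-06), lower in DESeq2 with the replicate term. That fit called 4.57% of all genes higher and 2.58% lower, and these counts are too small to be set against those shares. The median log2 change in limma of the 28 was -0.01. Pigt, a subunit of the transamidase that joins protein and anchor, was at 0.42 (SE 0.18, adjusted p = 0.132 in DESeq2 with the term).

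Genes of the epithelia in which Lypd8, Ly6d and Lypd3 are known were also examined. Of 24 genes of enterocytes and colonocytes, where Lypd8 is made, 13 are listed, and the rest are absent. In DESeq2 with the replicate term 10 of the 13 were called higher and 0 lower. Their median log2 change in limma was 1.58, with pair medians of 0.67, 2.03 and 1.62. The DESeq2 fit called 4.57% of all genes higher and 2.58% lower, and limma called 0 of the 13, with or without the replicate term. Krt20, a keratin of the mature surface cells, had 3886, 13722 and 9301 normalised counts in shJag1_3 libraries 1 to 3, against 2577, 3324 and 2916 in shCtrl libraries 1 to 3 (1.44, SE 0.29, adjusted p = 7.74e-05 in DESeq2 with the term). Its highest library, number 2 of the knockdown, was also the highest for Lypd8, but the list did not share 1 peak. Lgals4 and Cdh17, the listed genes with a higher mean than Krt20, were highest in knockdown libraries 1 (73364) and 3 (64598). Of 17 squamous genes 10 are listed, of which DESeq2 with the term called 5 higher, Sprr1a, Sfn, Perp, Krt13 and Krt15, and 0 lower. Krt15 had 41.2, 57.8 and 68.0 normalised counts in shJag1_3 libraries 1 to 3, against 29, 2.3 and 4.98 in shCtrl libraries 1 to 3. It passed the filter only through the knockdown libraries, which ties its call to being higher. The squamous median was 1.14, with pair medians of 0.31, 1.54 and 2.03, and limma again called 0 with or without the term. Sfn, the stratifin of squamous cells, had 2701, 2004 and 1299 normalised counts in shJag1_3 libraries 1 to 3, against 1281, 271 and 242 in shCtrl libraries 1 to 3 (2.13, SE 0.34, adjusted p = 2.26e-07 in DESeq2 with the term). Ductal genes, which mark the organoids themselves, had a median of 0.54, with 4 of 10 called higher, Krt8, Krt19, Epcam and Muc1, and 1 lower, Cftr. These lists were written with results of these data known, and their part in the levels of the 7 genes was not tested.

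**Figure D4:**
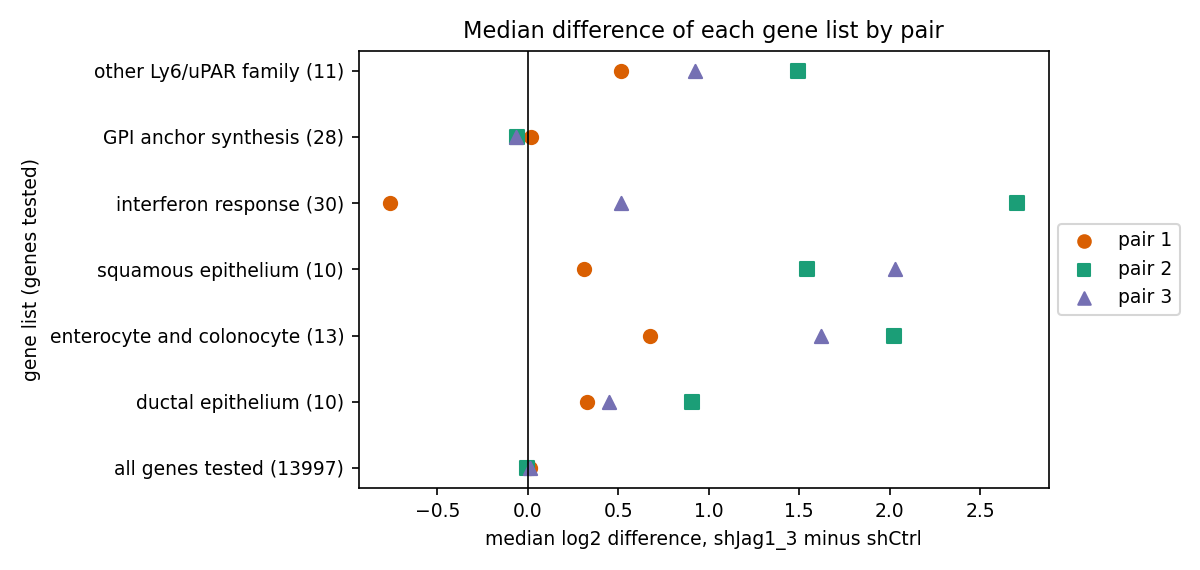
Median log2 difference of normalised count plus 1, shJag1_3 minus shCtrl, of each gene list (number of genes tested in brackets) within pairs 1, 2 and 3. Interferon genes run from -0.76 in pair 1 to 2.70 in pair 2, whereas the other Ly6/uPAR genes are above 0.5 in each pair and GPI anchor genes stay near 0. The Ly6/uPAR medians include Spaca4, Ly6m, Ly6g6c and Ly6g2, which passed the filter only through the knockdown libraries, so being higher is partly built in.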

How the data were processed

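The 7 genes, the gene lists and the tests were chosen with earlier results of these data known. The authors deposited a signal per gene and library, the read count divided by a size factor, and per the submitters' processing notes used Trimmomatic, STAR 2.5.2b, DESeq2 1.32.0 and GRCm38. The counting tool is not given in the sources used here. All 6 deposited tables were identical, and 1 was used. Within 0.001 of a read, 100% of the values were whole multiples of 1 step, and these recovered reads entered edgeR and DESeq2. Identifiers were matched to GENCODE M21, Ly6m by its Entrez identifier and Ly6g2 by its span.

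Groups were taken from the sample titles. The test was limma-trend (limma 3.58.1, R 4.3.3) on log2 of the normalised count plus 1, for 13997 genes with at least 10 in at least 3 libraries, with Benjamini-Hochberg adjustment over all of them and calls at an adjusted p below 0.05, and 257 genes were below the filter. Alternatives were edgeR 4.0.16 and DESeq2 1.42.0, each with and without the replicate number, other pseudocounts and filters, ERCC spike-in scaling, and libraries left out. DESeq2 with the replicate term, used for many calls in the text, was an alternative that gave calls where limma gave none, and limma and edgeR with the same term called 2 genes each. Gene lists are described by counts and medians. Genes were named by rule: the 7, all listed family genes, up to 3 abundant members per list, the nearest neighbours and the 4 most alike. Called genes of short counts (Krt13, Krt15, Krt19, Epcam, Muc1, Cftr, Pign, 2210407C18Rik) were named after their values were seen.

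Deviations from group means of libraries with the same number correlated across genes at r = 0.677, 0.568 and 0.443, so by the threshold of 0.1 the numbers were treated as pairs. Knockdown 2 with control 3 (0.385) and knockdown 3 with control 2 (0.365) passed it too, and the meaning of a number is not given in the labels. Counting error bounds genes with few reads, where 1 read is 0.764 to 1.25 normalised counts. The p-values measure the spread between these libraries.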

Additional observations from a re-analysis of the deposited data

How the results depend on the processing

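Limma called 0 genes higher and 0 lower. With the replicate block the counts were 2 higher in limma and 2 in edgeR. DESeq2 called 101 higher and 73 lower without that term, and 640 and 361 with it, and ERCC scaling in limma called 77 and 39, with the median of all genes moved by -0.18. Replicates 2 and 3 only gave 846 and 500. Leaving out single libraries gave 0 to 210 higher, with 210 without shCtrl library 1, and 0 to 84 lower. DESeq2 with the replicate block, chosen after seeing the data for each pair left out, gave 1250 and 870 without pair 1, 62 and 35 without pair 2, and 88 and 39 without pair 3.

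No log2 change of the 7 genes or of Jag1 turned its direction under any alternative. Ly6a passed at 1.10 in DESeq2 without the term, at 1.09 with the replicate block, at 1.18 on replicates 2 and 3 only, and at 1.18 and 1.26 in DESeq2 with the block without pairs 1 and 3. Ly6c1 passed at 1.40 with the block in DESeq2, at 1.72 on replicates 2 and 3 only, and at 1.72 and 1.41 without pairs 1 and 3. Lypd3 passed at 2.20 on replicates 2 and 3 only. Jag1 passed at -1.02 with the block in DESeq2 and at -1.11 without pair 1. Ly6g ran from 3.88 without pair 2 to 8.09 without pair 1 and Lypd8 from 3.84 to 7.47, in the same fits. The filter at 50 left no value for Ly6d, Lypd3 and Lypd8. The block in limma and edgeR changed no call of the 5 genes tested or of Jag1. The cause of these differences was not tested. Controls with 3 to 13 reads limit the size given for Lypd8, Ly6d, Lypd3 and, in pairs 2 and 3, Ly6g.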
